A study of Picea abies with 19 samples.

Results

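Fast genotypes of Norway spruce (Picea abies) were compared with each other in root ends of 18-month cuttings. The members were the 7 arrays of 18 months whose titles begin with Fast, of 19 arrays in the series. Genotypes 18, 20 and 35 had 2 arrays each and were tested against each other, and genotype 15 had 1 array and is shown beside them without a test. The series also holds 8 arrays of 18-month cuttings of the slow genotypes 52, 61, 70 and 76, and arrays of 5-month cuttings of genotypes 20 and 35 (1 each) and 52 (2). All cuttings grew in nursery peat with mineral fertiliser, and the labels name no treatment. The labels do not say what fast and slow refer to. They call the arrays of a genotype biological samples of several root ends each and do not say whether these came from separate cuttings, so p-values measure the spread between these samples. At 18 months the middle number of the title is the same for both arrays of a genotype, so whatever it marks and the genotype cannot be told apart.

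A cutting is a clone of the tree it was taken from, and cuttings of 1 genotype share 1 genome. The roots studied here are adventitious, formed on a shoot and not from a seedling root, and a cutting takes up its water and minerals through them. Differences between clones kept in 1 nursery are a common way to look at inherited variation in transcript levels of a forest tree. A spotted oligonucleotide array reads a transcript through its pairing with a fixed probe, so a different transcript level and a different match between transcript and probe in a genotype cannot be told apart. In whole root ends, fewer cells of a type and less RNA per cell cannot be told apart either. The probes carry numbers and no gene names in the files used here, so no gene, pathway or root marker could be looked up, and all results are given by probe.

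Each array held 32144 spruce probes. A reading was called above background when its intensity exceeded the local background by 2 background standard deviations, and 16376 probes that did so on at least 2 of the 6 compared arrays were tested. Values are normalised log2 intensities, on which a difference of 1 is a doubling of signal. For the probes named by rule, readings below background on the 7 arrays lay between 6.05 and 8.88, and their order carries no meaning. Between 7436 and 18498 probes were above background on the 7 arrays. Genotype 18 had the fewest, 7436 and 10449, and also the highest median background intensities, 721 and 394. Genotype 20 had 18498 and 12487 probes above background at median background intensities of 96 and 256, genotype 35 had 12649 and 16460 at 308 and 147, and genotype 15 had 15344 at 123. The number of arrays limits the precision.

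The authors' table of the whole series puts these arrays under other names. With every probe centred over the quantile-normalised arrays, 6 of the 7 scanner files correlated at 0.866 to 0.941 across probes with 1 table column each, and 0 of these 6 columns bore the file's own name. Genotype 15 and genotype 35 replicate 1 matched the columns of genotype 18 replicates 1 and 2. Both arrays of genotype 20 matched columns of genotype 52, and so did genotype 35 replicate 2. Genotype 18 replicate 1 matched the 5-month column of genotype 20, and genotype 18 replicate 2 matched no column above 0.525. The highest correlation of any of the 7 with its own column was 0.402. No array was reassigned, and each scanner file keeps its own title in all that follows.

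Before any test, the 2 arrays of genotype 18 were the most alike, with a Spearman correlation of 0.938 over the tested probes. The arrays of genotype 35 followed at 0.888. The 2 arrays of genotype 20 correlated at only 0.824, below the 0.867 between genotype 20 replicate 2 and genotype 18 replicate 2 and the 0.865 between genotype 20 replicate 2 and genotype 35 replicate 2. The arrays of a genotype differed by more than 1 log2 unit on 5.31 percent of tested probes in genotype 18, 20.4 percent in genotype 20 and 11.0 percent in genotype 35. Scan timing moved with this order. Both arrays of genotype 18 were scanned in scan period 2 and both of genotype 35 in scan period 1, while genotype 20 had replicate 1 in period 1 and replicate 2 in period 2. The part of scan timing in these similarities was not tested. The array of genotype 15 was less like the others, at 0.700 to 0.727, except for a correlation of 0.797 with genotype 35 replicate 1, which was scanned on the same day. The plot of array similarity shows these values.

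**Figure D1:**
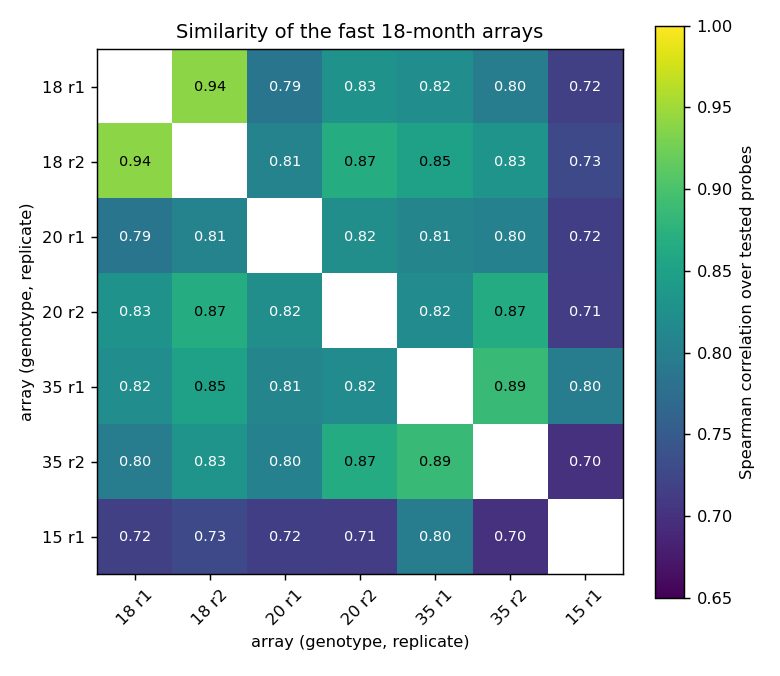
Spearman correlations between the 7 fast 18-month arrays over 16376 tested probes, with rows and columns named by genotype and replicate and darker cells less alike. The 2 arrays of genotype 18 stand at 0.94, those of genotype 35 at 0.89 and those of genotype 20 at 0.82, and genotype 15 lies at 0.70 to 0.73 against all arrays but genotype 35 replicate 1, at 0.80.

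The comparison of the 3 genotypes asks which transcripts differ between fast clones of the same age. The moderated F-test of limma called 118 of 16376 probes at an adjusted p of 0.05, which is 0.721 percent of those tested. The unadjusted p was below 0.05 for 2912. The 118 probes spanned a median of 2.92 log2 units between the lowest and the highest genotype mean, from 2.09 to 7.18, against a median of 0.69 over all tested probes. On 67 of the 118 at least 1 genotype was above background on neither array. The level of such a genotype is not known, so these spans may misstate the difference. On 32 of the 118 all 6 arrays were above background, against 7018 of the 16376 tested probes. How many of all tested probes had a genotype above background on neither array was not counted. The count of 118 rested on single arrays. It was 0 without either array of genotype 18 (1297 and 1682 probes at an unadjusted p below 0.05 without replicates 1 and 2, limma), 10 and 4 without replicates 1 and 2 of genotype 35, and 287 and 1034 without replicates 1 and 2 of genotype 20. Over the 7018 probes above background on all 6 arrays, 0 passed (1270 at an unadjusted p below 0.05, limma).

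Each of the 118 probes was assigned to the genotype that stood farther from the other two, with the split at the larger of the 2 gaps between the genotype means. Genotype 18 stood apart on 43 probes, genotype 20 on 37 and genotype 35 on 38. In this order these were 36.4, 31.4 and 32.2 percent of the 118, against 39.7, 27.8 and 32.6 percent of all tested probes. Genotype 18 was the low one on 32 of its 43 probes, against 3492 of 6495 over all tested probes. Genotype 20 was the high one on 25 of 37, against 2250 of 4550, and genotype 35 on 20 of 38, against 2610 of 5331. The low share of genotype 18 moves with its fewer readings above background, whose part was not tested. On 58 of the 118 probes, 49.2 percent, the larger gap took up over 80 percent of the span, against 36.7 percent of all tested probes. On these 58 the other two genotypes lay close together. The 118 were spread over the slide, where they lay in 113 of 1296 position groups with at most 2 in any of them.

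The probe of smallest p was Spruce_24444, which was bright in genotype 35 and in none of the others. It read 6.24 and 6.67 in genotype 18, 7.07 and 7.08 in genotype 20, and 12.90 and 12.52 in genotype 35. Only the arrays of genotype 35 were above background, and the groups did not overlap. The signal of genotype 35 exceeded that of genotype 18 at least 18.4-fold and that of genotype 20 at least 37.2-fold (F-test adjusted p = 0.00247, limma). Such a bound sets the mean of the bright genotype against, for each dim array, the higher of the probe's own signal and the lowest signal of any probe above background. The threshold of detection varies with the local background of each spot, so all such bounds are approximate. Genotype 15 read 7.11, below background, and 0 of 8 slow arrays were above background. The single 5-month array of genotype 35 read 12.51, and that of genotype 20 read 7.36, below background.

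Spruce_26690 showed a similar division, with genotype 15 on the side of genotype 35. It read 6.63 and 7.02 in genotype 18, 6.50 and 6.22 in genotype 20, and 11.23 and 10.93 in genotype 35, where alone of the 3 it was above background. The signal of genotype 35 exceeded that of genotype 18 at least 5.92-fold and that of genotype 20 at least 12.0-fold (F-test adjusted p = 0.0053, limma). Genotype 15 read 12.05, above every array of genotype 35. No slow array was above background, with a highest reading of 6.98.

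Genotype 20 was the one below background on Spruce_16606 and Spruce_16443, whose p lay between those of Spruce_24444 and Spruce_26690. Spruce_16606 read 11.88 and 11.58 in genotype 18, 6.24 and 6.09 in genotype 20, and 10.84 and 10.49 in genotype 35, with both arrays of genotype 20 below background. Genotype 18 exceeded genotype 20 at least 18.8-fold (difference 5.56 ± 0.33 log2 units, SE, adjusted p = 0.00174, limma). Genotype 15 read 9.80, and among slow genotypes it was above background on both arrays of genotypes 52 and 76 and on none of genotypes 61 and 70, so both states occurred outside the fast genotypes as well. Spruce_16443 read 13.62 and 14.00 in genotype 18, 6.94 and 6.33 in genotype 20, and 12.32 and 11.32 in genotype 35. It was above background on 8 of 8 slow arrays, from 11.61 to 13.25, and at 12.74 in genotype 15, so genotype 20 alone of the 8 genotypes was below background. At 5 months it was again below background in genotype 20, at 6.90, and read 12.87 in genotype 35.

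Spruce_23840 was low in genotype 35, at 7.62 and 8.20 with 1 of 2 arrays above background, against 12.56 and 12.84 in genotype 18 and 12.40 and 13.38 in genotype 20. Genotype 18 was higher by 4.79 ± 0.42 and genotype 20 by 4.98 ± 0.42 log2 units (SE, adjusted p = 0.0138 and 0.00924, limma). Genotype 15 lay on the low side at 8.86, and slow arrays ran from 7.94 to 13.63. Spruce_11497 was high in genotype 20, at 12.72 and 13.32, against 8.54 and 7.52 in genotype 18, below background, and 8.90 and 8.66 in genotype 35. Genotype 20 exceeded genotype 18 at least 22.7-fold and genotype 35 18.9-fold (adjusted p = 0.0121 and 0.0244, limma).

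On the remaining 2 of these 8 probes genotype 18 was below background on both arrays. Spruce_09775 read 6.55 and 6.39 in genotype 18, 10.50 and 9.78 in genotype 20, and 11.78 and 11.08 in genotype 35, and genotype 35 exceeded genotype 18 at least 7.56-fold (difference -4.96 ± 0.40 log2 units for genotype 18 minus 35, SE, adjusted p = 0.00993, limma). At 5 months genotype 35 was not above background on this probe, at 6.75, and genotype 20 read 9.04. Spruce_24417 read 8.12 and 8.07 in genotype 18, 12.00 and 11.65 in genotype 20, and 11.58 and 12.24 in genotype 35. Both arrays of genotype 18 were below background, with intensities of 1016 and 613 at local backgrounds of 801 and 418. All 5 other fast arrays of 18 months were above background, genotype 15 at 11.13. Genotype 20 was at least 9.92-fold and genotype 35 at least 10.5-fold higher than genotype 18 (adjusted p = 0.0121 and 0.0138, limma). The plot of these 8 probes shows the split of each into a high and a low side.

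**Figure D2:**
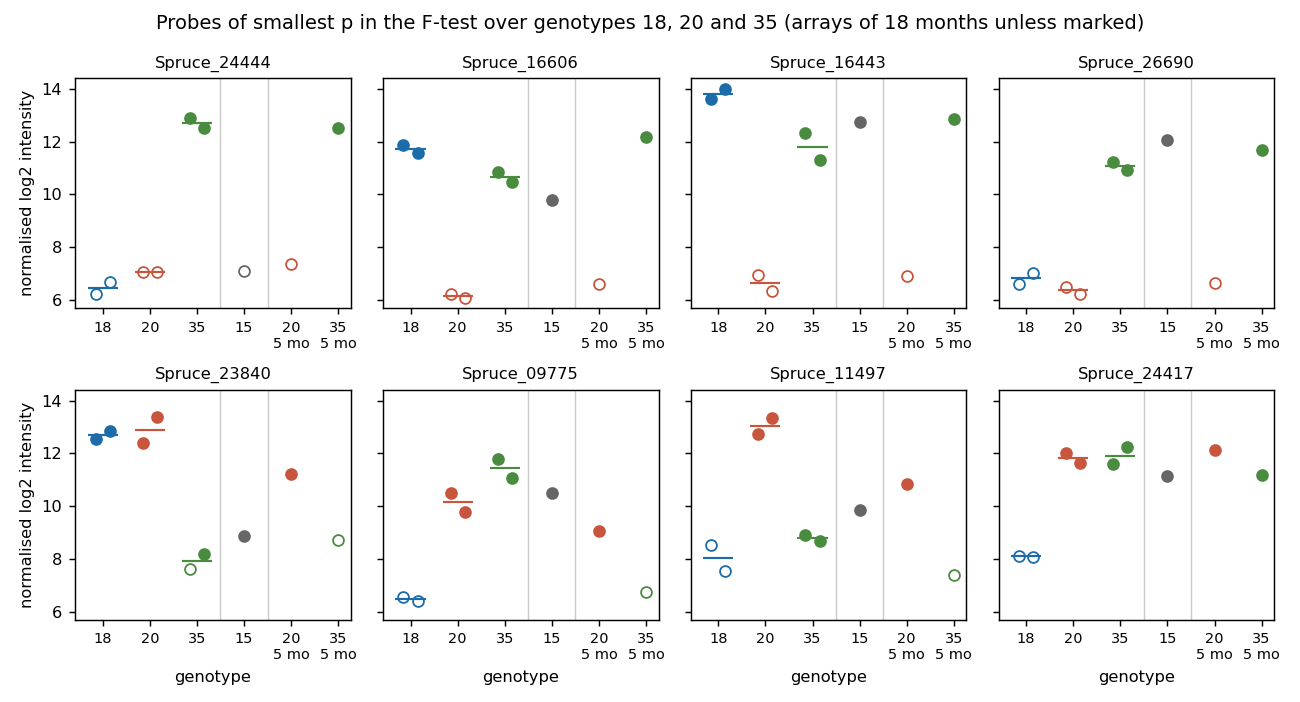
Normalised log2 intensity (vertical axis) of the 8 probes of smallest p in the F-test, by genotype at 18 months and for the single 5-month arrays of genotypes 20 and 35 (horizontal axis). Each point is an array, filled where above background, and a line marks the mean of 2 arrays. Spruce_24444 reads 12.90 and 12.52 in genotype 35 and is open in genotypes 18, 20 and 15, and Spruce_16443 is open in genotype 20 alone.

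Genotype 18 differed from genotype 20 on 55 probes, 0.336 percent of those tested, with 17 higher (0.104 percent) and 38 lower (0.232 percent) in genotype 18 by limma (moderated contrast). The unadjusted p was below 0.05 for 2421. The absolute differences of the 55 had a median of 2.96 log2 units, against 0.42 over all tested probes. On 34 of the 55 a genotype was above background on neither of its arrays. On 13 of the 55 every array of both genotypes was above background. The same counts over all tested probes were not made. Besides Spruce_16443 (difference 7.18 ± 0.43 log2 units, SE, adjusted p = 0.00174, limma) and Spruce_16606, the largest among those higher in genotype 18 were Spruce_18051 and Spruce_09662. Spruce_18051 read 12.96 and 13.56 in genotype 18 and 8.42 and 9.22 in genotype 20, a 21.7-fold difference (adjusted p = 0.0121, limma), with genotype 35 between them at 11.15 and 10.97. All 6 arrays were above background, so both genotypes gave signal and differed in its level. Spruce_09662 read 11.84 and 11.67 in genotype 18, 8.44 and 8.01 in genotype 20, and 8.20 and 8.53 in genotype 35, and was 11.5-fold higher in genotype 18 than in genotype 20 (adjusted p = 0.0121, limma). Genotype 70 read 11.50 and 10.65 on this probe, the highest of the slow arrays.

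Among the probes lower in genotype 18, Spruce_04630 read 8.88 and 9.26 in genotype 18, with 1 of 2 arrays above background, and 13.41 and 14.84 in genotype 20. Its difference was -5.05 ± 0.50 log2 units (SE, adjusted p = 0.0121, limma). Genotype 35 read 13.86 and 14.35, genotype 15 read 12.11, and 7 of 8 slow arrays were above background. Genotype 18 was the one low fast genotype. Spruce_17254 read 7.15 and 6.92 in genotype 18 and 10.97 and 12.42 in genotype 20, at least 9.08-fold higher in genotype 20 (adjusted p = 0.0157, limma). Spruce_06513 read 6.48 and 6.97 in genotype 18 and 11.02 and 10.55 in genotype 20, at least 4.83-fold higher in genotype 20 (adjusted p = 0.0121, limma), with genotype 35 between them at 8.69 and 8.91. Spruce_11497, given above, completes the 4 largest.

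Within scan period 2, which holds both arrays of genotype 18 and replicate 2 of genotype 20, 983 probes passed, 289 higher and 694 lower in genotype 18 (limma, the lone array assumed to vary like the other genotype). The 8 probes named for this comparison kept their direction there, with differences from -5.77 to 7.48 log2 units. The same arrays served to pick these 8 for their large differences, so the kept direction is no separate evidence. The count of 55 was 0 without either array of genotype 18 (940 and 1488 at an unadjusted p below 0.05 without replicates 1 and 2, limma), 15 without either array of genotype 35 and 685 without replicate 2 of genotype 20.

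Genotype 18 differed from genotype 35 on 144 probes, 0.879 percent of those tested, with 59 higher (0.36 percent) and 85 lower (0.519 percent) in genotype 18 by limma (moderated contrast). The unadjusted p was below 0.05 for 2999. The absolute differences of the 144 had a median of 2.51 log2 units, against 0.46 over all tested probes, and 57 of the 144 were above background on all 4 arrays. On 63 of the 144 a genotype was above background on neither of its arrays. The same counts over all tested probes were not made. Besides Spruce_23840, the largest of those higher in genotype 18 were Spruce_03506, Spruce_00531 and Spruce_27323. Spruce_03506 read 12.53 and 11.34 in genotype 18 and 6.80 and 7.28 in genotype 35, where it was below background, at least 21.0-fold higher in genotype 18 (adjusted p = 0.0138, limma). Genotype 20 lay between, at 9.73 and 9.24. Spruce_00531 read 12.64 and 11.67 in genotype 18 and 7.59 and 8.15 in genotype 35 (difference 4.29 ± 0.43 log2 units, SE, adjusted p = 0.0138, limma). Spruce_27323 read 12.37 and 11.57 in genotype 18 and 7.61 and 8.46 in genotype 35 (difference 3.93 ± 0.45 log2 units, SE, adjusted p = 0.0217, limma). On both of these probes genotype 20 lay between the other two, 1 of 2 arrays of genotype 35 was above background, and genotype 15 lay near genotype 35, at 8.37 and 8.54.

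The 4 largest of those lower in genotype 18 were Spruce_24444, Spruce_04630, Spruce_09775 and Spruce_26690, each described above. Spruce_24444 differed by -6.26 ± 0.34 log2 units (SE, adjusted p = 0.00145, limma) and Spruce_04630 by -5.04 ± 0.50 (SE, adjusted p = 0.0138, limma). Genotype 18 was below background on these 4 probes, except for replicate 2 on Spruce_04630, which was above it at 9.26.

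No scan period holds both genotypes, so scan period could be separated from this comparison only through genotype 20, which spans both periods. Adding scan period to the model left 103 probes, 14 higher and 89 lower in genotype 18, and only 22 of them were among the 144 (limma). Of the 8 probes named for this comparison, Spruce_27323 no longer passed there (difference 3.29 log2 units, adjusted p = 0.0967, limma) and the other 7 did. The count of 144 was 0 without either array of genotype 18 (1244 and 1891 at an unadjusted p below 0.05 without replicates 1 and 2, limma), 5 and 2 without replicates 1 and 2 of genotype 35, and 485 without either array of genotype 20. It was 68 over the 13 arrays of 18 months without genotype 76, and 63 of these were among the 144.

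Genotype 20 differed from genotype 35 on 43 probes, 0.263 percent of those tested, with 29 higher (0.177 percent) and 14 lower (0.0855 percent) in genotype 20 by limma (moderated contrast). The unadjusted p was below 0.05 for 1826. The absolute differences of the 43 had a median of 3.01 log2 units, against 0.36 over all tested probes. On 21 of the 43 a genotype was above background on neither of its arrays. On 14 of the 43 every array of both genotypes was above background. The same counts over all tested probes were not made. The largest of those higher in genotype 20 were Spruce_23840, Spruce_17254, Spruce_11497 and Spruce_03715. Spruce_17254 read 10.97 and 12.42 in genotype 20 and 7.21 and 7.19 in genotype 35, at least 17.8-fold higher in genotype 20 (adjusted p = 0.0244, limma). It was above background in genotype 15, at 11.73, and on 6 of 8 slow arrays, so genotypes 18 and 35 shared the low state with genotype 76. Spruce_03715 read 11.95 and 11.12 in genotype 20 and 7.60 and 7.19 in genotype 35, at least 15.9-fold higher in genotype 20 (adjusted p = 0.0162, limma). The 4 largest of those lower in genotype 20 were Spruce_24444, Spruce_16443, Spruce_26690 and Spruce_16606, with differences of -5.64 ± 0.34, -5.18 ± 0.43, -4.72 ± 0.34 and -4.50 ± 0.33 log2 units (SE, adjusted p = 0.00326, 0.00924, 0.00497 and 0.00497, limma).

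Within scan period 1, which holds replicate 1 of genotype 20 and both arrays of genotype 35, 0 probes passed (2232 at an unadjusted p below 0.05, limma). The 8 probes named for this comparison kept their direction there, with differences of -5.64 to 4.55 log2 units. They had been picked for large differences on these same arrays, so the kept direction is no separate evidence. Adding scan period to the model gave 398 probes, the 43 among them. That contrast rests on replicate 1 of genotype 20 alone, and its count equals that without replicate 2. The count was 19 without replicate 1 of genotype 20, 5 without either array of genotype 35, and 1 without either array of genotype 18. The 1 probe that still passed was Spruce_24444 (adjusted p = 0.0492, limma). The plot of counts by setting shows how far the 4 counts moved.

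**Figure D3:**
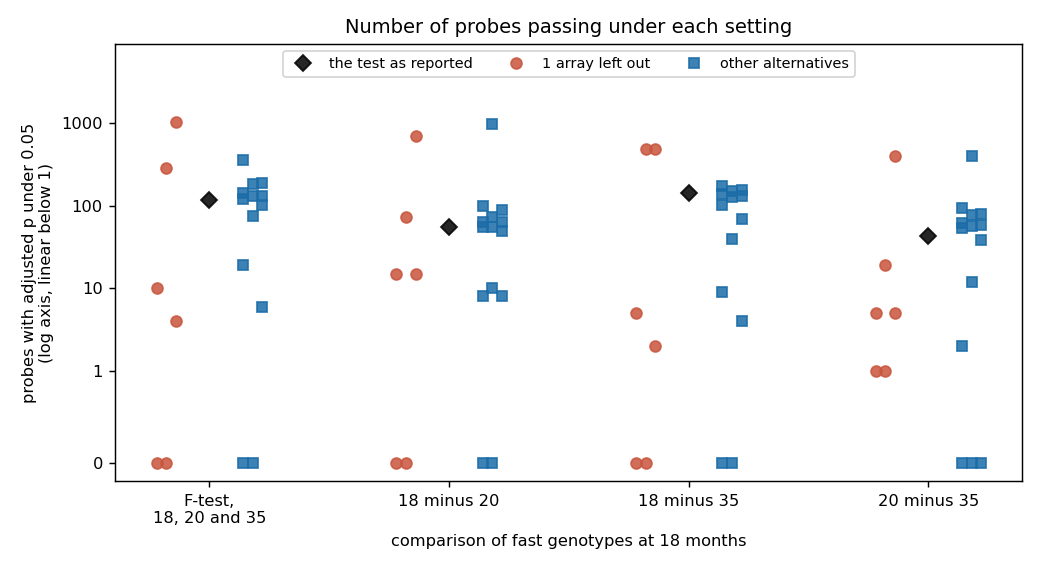
Number of probes with an adjusted p under 0.05 (vertical axis, logarithmic and linear below 1) for the F-test and the 3 pairwise comparisons. Diamonds mark the reported counts of 118, 55, 144 and 43, circles the counts with 1 array left out and squares those under other settings, and circles reach from 0 to 1034 for the F-test.

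Not passing the test did not show that the genotypes were alike. The median 95 percent interval of a difference reached 0.88 log2 units to either side in each pairwise comparison. Intervals wholly between -1 and 1 log2 units were found for 2886 probes in genotype 18 minus 20, 2449 in genotype 18 minus 35 and 3009 in genotype 20 minus 35. Where readings were below background, a narrow interval sets no limit on the transcript level.

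The 5-month cuttings gave 1 array each of genotypes 20 and 35 that the test had not used. Of the 43 probes that differed between these genotypes at 18 months, 42 differed in the same direction at 5 months, 97.7 percent, against 52.3 percent of all tested probes. All 29 probes higher in genotype 20 at 18 months were also higher at 5 months, by a median of 2.89 log2 units at 18 months and 2.68 at 5 months. Of the 14 that were lower, 13 were lower at 5 months, by medians of -3.26 at 18 months and -2.14 at 5 months. On 41 of the 43 the 5-month difference was in the same direction and larger than 1 log2 unit, against 2668 of 16376 over all tested probes. The 43 differed by at least 2.32 log2 units at 18 months, while all tested probes differed by a median of 0.36. The shares of all tested probes are therefore no matched baseline. The scan periods do not run the same way at both ages. The 5-month array of genotype 20 was scanned in period 1 and that of genotype 35 in period 2, while both 18-month arrays of genotype 35 were scanned in period 1. With 1 array per genotype the 5-month difference was not tested, and all 19 arrays were normalised together. The share was 76.1 percent of the 398 probes called with scan period in the model.

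**Figure D4:**
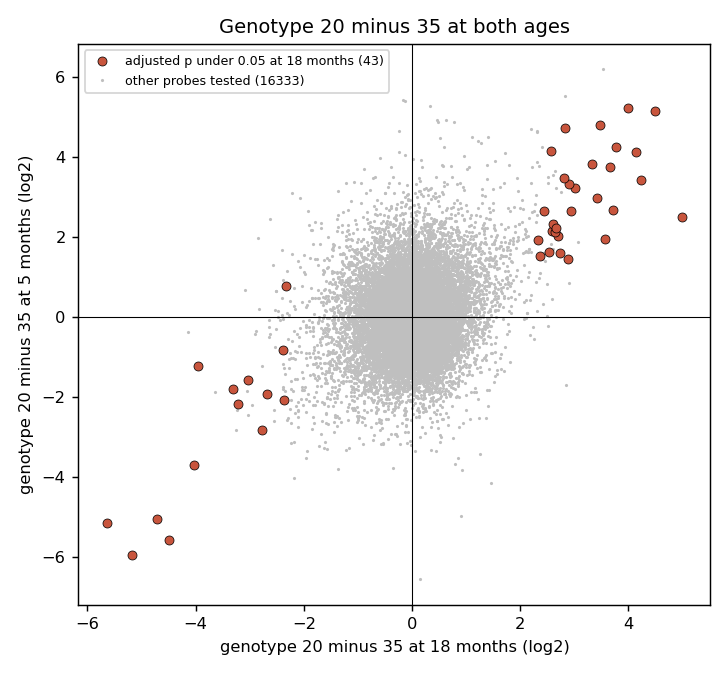
Difference of genotype 20 minus 35 at 18 months (horizontal axis, fitted over 2 arrays each) and at 5 months (vertical axis, 1 array each), in log2 units. Filled points are the 43 probes that passed at 18 months, of which 42 have the same sign at both ages, and grey points are the other probes tested.

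The 5-month arrays also fell nearest to their own genotype on the 118 probes of the F-test. The 5-month array of genotype 20 was nearest to the 18-month mean of genotype 20 on 79 of 118 probes, 66.9 percent, against 39.9 percent of all tested probes. The 5-month array of genotype 35 was nearest to genotype 35 on 75 of 118, 63.6 percent, against 31.9 percent of all tested probes. Probes on which genotype 18 alone stands apart cannot separate genotypes 20 and 35, and they are among the 118. The 118 were also called for wide spans, with a median of 2.92 log2 units against 0.69 over all tested probes. The shares of all tested probes are therefore no matched baseline here either.

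Probes read in 1 genotype only were then counted by detection, without a test. Genotype 18 had 4 probes above background on both of its arrays and on no array of genotypes 20 and 35 (0.0244 percent), genotype 20 had 201 (1.23 percent) and genotype 35 had 120 (0.733 percent). In the opposite direction 1297 probes (7.92 percent) were below background on both arrays of genotype 18 and above it on all 4 others, against 10 (0.0611 percent) for genotype 20 and 16 (0.0977 percent) for genotype 35. These counts move with the number of readings above background per array, whose part was not tested. Most of the probes were dim. Those of genotype 20 had a median level of 8.28 and those of genotype 35 of 8.30, and only 13 of the 201, 8 of the 120 and 0 of the 4 also passed the F-test.

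The 4 probes of genotype 18 were Spruce_21426, Spruce_20159, Spruce_30182 and Spruce_29104, with means of 9.96 ± 0.64, 9.32 ± 0.59, 9.24 ± 0.16 and 9.18 ± 0.65 (SD, n = 2 each). None passed the F-test, with adjusted p of 0.0557, 0.16, 0.176 and 0.104 (limma). Spruce_29104 was above background on no other array of 18 months, fast or slow.

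The 13 probes of genotype 20 that passed the F-test ranged in mean level from 8.93 to 11.70. They met the filter only through the arrays of genotype 20, so signal above background there was a condition of being tested. On the 5-month array of genotype 20, 10 of the 13 were above background, and on that of genotype 35, 0 of 13. Of all 201 probes of genotype 20, only 33 (16.4 percent) were above background on the 5-month array of genotype 20 and 3 (1.49 percent) on that of genotype 35. Over all tested probes 59.5 and 54.0 percent were above background on these arrays. Of the 13, 8 were also above background in genotype 15, where 82.8 percent of all tested probes were. Only Spruce_15178 was above background on no slow array, against 32 of all 201. The other 12 were each read on at least 1 slow array. Spruce_06507 read 10.89 and 9.88 in genotype 20 and was above background in genotype 15 and on 8 of 8 slow arrays, and was below background at 18 months in genotypes 18 and 35 alone. Spruce_00560 read 10.48 and 9.86 in genotype 20, 9.76 at 5 months in that genotype, and was above background elsewhere on 1 slow array alone, at 7.95 in genotype 52. Spruce_03715 was above background in genotype 20 at both ages, at 11.67 at 5 months, in genotype 15 at 7.81 and on 2 slow arrays, the highest of which read 8.88. Spruce_12988, Spruce_04016 and Spruce_20758 did not pass for genotype 18 minus 20 (differences -0.43, -2.07 and -1.98 log2 units, adjusted p = 0.563, 0.0575 and 0.0642, limma). On Spruce_12988 genotype 18 read 8.70 and 8.29, below background, and genotype 20 read 8.94 and 8.92. Spruce_28278 and Spruce_11698 did not pass for genotype 20 minus 35 (differences 2.10 and 2.13 log2 units, adjusted p = 0.102 and 0.0544, limma).

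The 8 probes of genotype 35 that passed the F-test ranged from 8.92 to 12.71. They met the filter only through the arrays of genotype 35, so signal above background there was a condition of being tested. On the 5-month array of genotype 35, 6 of the 8 were above background, and on that of genotype 20, 0 of 8. Of all 120 probes of genotype 35, 23 (19.2 percent) were above background on the 5-month array of genotype 35 and 14 (11.7 percent) on that of genotype 20, so the split of the 8 was not that of the 120. On 6 of the 8 no slow array was above background, against 33 of all 120. In genotype 15, 5 of the 8 were above background, against 82.8 percent of all tested probes there. The share of all tested probes above background on no slow array was not counted. Spruce_06389 read 11.10 and 9.74 in genotype 35, 11.81 in genotype 15 and 10.34 at 5 months in genotype 35, and no other array was above background. Spruce_13906 read 9.97 and 10.63 in genotype 35 and 9.06 at 5 months, and was above background in no other genotype, as was Spruce_24444. Spruce_06389 did not pass between genotypes 18 and 35 (difference -1.94 ± 0.46 log2 units for genotype 18 minus 35, SE, adjusted p = 0.104, limma), with genotype 18 below background at 8.60 and 8.35. Spruce_26554 and Spruce_23989 did not pass there either (differences -0.32 and -1.69 log2 units, adjusted p = 0.627 and 0.0664, limma). Between genotypes 20 and 35, Spruce_26554, Spruce_23989 and Spruce_00614 did not pass (differences -2.16, -2.24 and -2.23 log2 units, adjusted p = 0.0539, 0.0508 and 0.0522, limma). Spruce_26554 and Spruce_23989 thus passed no pairwise comparison. By the larger gap, genotype 20 stood apart on the low side on Spruce_06389 and Spruce_26554. On Spruce_26554 genotype 18 read 8.60 and 8.60, below background, and genotype 35 read 8.71 and 9.13.

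**Figure D5:**
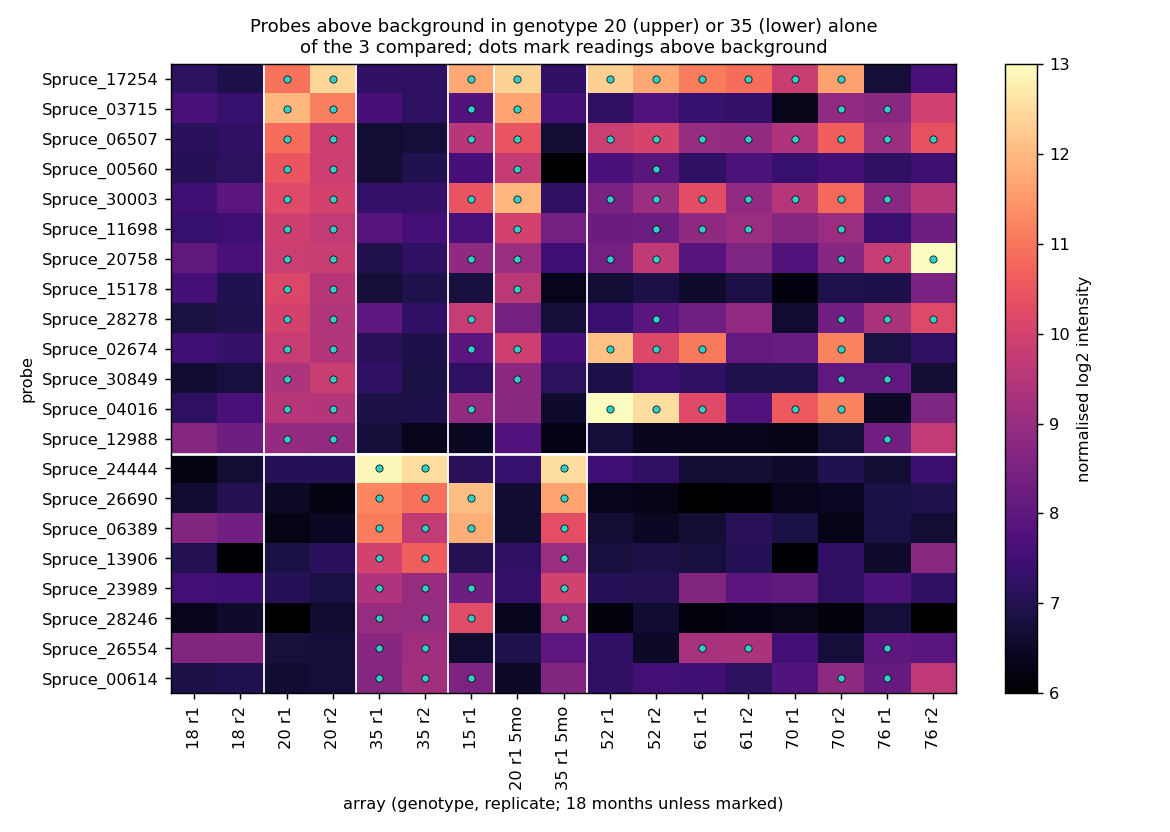
Normalised log2 intensity (colour) of 21 probes (rows) that passed the F-test and were above background on both arrays of genotype 20 alone (13 upper rows) or genotype 35 alone (8 lower rows) of the 3 compared genotypes, on 17 arrays (columns). Dots mark readings above background. The 5-month array of genotype 20 carries dots on 10 upper rows and 0 lower rows, and that of genotype 35 on 6 lower rows and 0 upper rows.

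Probes below background in 1 genotype alone were also followed in the other arrays. Of the F-test probes below background on both arrays of genotype 18 and above it on the 4 others, 25 in number, 21 were above background in genotype 15, near the 82.8 percent of all tested probes, and 25 on at least 1 slow array. Of all 1297 such probes, passing or not, only 11 were above background on no slow array. For genotype 20 there were 5 such probes, of which 4 were above background in genotype 15, 0 on the 5-month array of genotype 20 and 4 on that of genotype 35. For genotype 35 there were 3, of which 1 was above background in genotype 15, 2 were on a slow array, 0 were above background on the 5-month array of genotype 35 and 2 on that of genotype 20. Of all 16 such probes of genotype 35, 1 was above background on no slow array.

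Genotype 15, with 1 array, was placed beside the tested genotypes without a test. On the 118 probes its value was nearest to genotype 35 on 50, genotype 20 on 36 and genotype 18 on 32. In this order the shares were 42.4, 30.5 and 27.1 percent of the 118, against 37.3, 31.3 and 31.4 percent of all tested probes. The share nearest to genotype 35 moved with the setting. It was 10 percent of the 10 probes called without replicate 1 of genotype 35, 50 percent of the 4 called without replicate 2 and 83.3 percent of the 6 called without background subtraction. Genotype 15 lay with the genotype that stood apart on 43 of the 118 probes, 36.4 percent, below the 42.1 percent of all tested probes. Because the 118 were called for wide spans, these shares of all tested probes are no matched baseline. The array of genotype 15 shared its scan day with genotype 35 replicate 1, and the part of this in its nearness to genotype 35 was not tested.

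The slow genotypes were used to see whether the probes that divide the fast genotypes also divide others. On the 118 probes both arrays of a slow genotype lay on the same side of the fast genotypes' dividing level in 75.4 percent of cases over 4 genotypes, against 61.0 percent over all tested probes. For genotype 52 the shares were 83.9 and 74.4 percent, for genotype 61 72.0 and 53.9, for genotype 70 77.1 and 55.9, and for genotype 76 68.6 and 59.9. The 118 were called for wide spans, so this difference is not read as a property of the slow genotypes. Both sides were occupied by slow genotypes with agreeing arrays on 47 of the 118 probes, 39.8 percent, against 44.7 percent of all tested probes. Among all tested probes the median span was 0.69 log2 units, so many dividing levels lie between close means. These shares therefore do not show whether the 118 divided the slow genotypes more or less often. The same F-test on the 6 arrays of slow genotypes 52, 61 and 70, chosen after the data had been seen, called 34 of 14778 probes, 0.23 percent. Of the 118 probes, 102 were tested there, and 41.2 percent of these had an unadjusted p below 0.05 among slow genotypes, against 13.5 percent of all probes tested in both. Since the 118 were called for wide spans, all probes tested in both are no matched baseline for this share. At the adjusted threshold 4 probes were shared, 3.39 percent of the fast list and 11.8 percent of the slow list. With genotype 76 included, 2 of 15326 slow probes passed, 0.013 percent, and 0 were shared (1424 at an unadjusted p below 0.05, limma).

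The 4 shared probes were Spruce_05290, Spruce_06513, Spruce_09655 and Spruce_16982, named because they are the shared ones. Spruce_06513 was below background in genotypes 18, 15 and 52 and above it on both arrays of genotypes 20, 35, 61, 70 and 76. Its means were 6.72 in genotype 18, 10.78 in genotype 20 and 8.80 in genotype 35, against 6.47, 10.90 and 10.28 in slow genotypes 52, 61 and 70 (F-test adjusted p = 0.0167 among fast and 0.0423 among slow genotypes, limma). Spruce_16982 had means of 7.55 in genotype 18, below background, 9.44 in genotype 20 and 11.03 in genotype 35, and among slow genotypes it was above background in genotype 70 alone, at 11.81. Spruce_05290 was highest among fast genotypes in genotype 35, at 9.42, and below background in genotype 18, while among slow genotypes it was below background in genotype 70 and at 10.39 in genotype 52. Spruce_09655 was above background on all 6 compared arrays, with means of 10.46 in genotype 18, 11.34 in genotype 20 and 8.76 in genotype 35, against 11.07, 9.10 and 13.03 in slow genotypes 52, 61 and 70. No genotype of the 3 in either set lacked its signal.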

How the data were processed

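Amplified RNA of root ends, labelled with Alexa 647, was hybridised to 1 spotted oligonucleotide array per sample, per the labels. The deposited intensity values are, per the file headers, the median pixel intensity and the median and standard deviation of the local background of 34992 spots, not normalised, of which 2848 are controls. Their image software was not given in the sources used here. Values in the authors' table are log2 values, deposited with a floor at 0 and column medians of 1.61 to 5.29 over spruce probes. Its scaling, centring and steps stay unknown, and 0 of its columns were without a sample.

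In limma 3.58.1 (R 4.3.3), intensities were corrected with normexp (offset 50), control spots were left out and quantile normalisation was applied to log2 values of all 19 arrays. Probes above background on at least 2 of 6 arrays were kept, which left out 15768. Genotype means were fitted with lmFit and eBayes over the 6 arrays (3 residual degrees of freedom). The arrays of other genotypes stayed out because an array of genotype 76 stands apart. Contrasts were tested two-sided and adjusted by Benjamini-Hochberg over all tested probes at 0.05. The 3 pairwise comparisons share arrays, so no overlap between them is given. The fit was tested on simulated data. The file names give scan dates only, 9 scan days, and each of the 6 arrays had a day of its own. Scan periods were set here by rule. A gap of over 3 days started a new period, and the last 2 days were put in 1 period, which gave 3 scan periods. Alternatives covered background, scaling, filter, arrays fitted, spread, scan timing and the authors' table. The members, comparisons and alternatives were chosen with earlier results of these data known. Named probes are the 8 of smallest p in the F-test, the 4 of largest difference in each direction of each pairwise comparison, and the 4 of highest mean among those above background in 1 genotype alone. Probes had no gene names, so no gene list was used, and no probe sequence was in the files used here.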

Additional observations from a re-analysis of the deposited data

Results flagged for a closer look

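Control spots that no comparison used gave signal. On the 7 fast 18-month arrays GFP1 spots exceeded background in 61.7 percent of readings and GFP2 spots in 53.1 percent, against 0 percent for spots named GFP alone, Alien, Buffer, Empty and BLANK. By array the share ran from 4.09 to 92.7 percent for GFP1. The labels do not describe these spots.

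Spruce_21752 was the 1 probe of the 43 differing between genotypes 20 and 35 whose direction turned with age, and it is named for that reason. Genotype 20 minus 35 was -2.33 log2 units at 18 months (adjusted p = 0.0456, limma), with means of 8.51 in genotype 20 and 10.84 in genotype 35. At 5 months the difference was 0.78, with 9.41 in genotype 20 and 8.63, below background, in genotype 35. The difference between the ages was not tested, since each genotype had 1 array at 5 months. Groups of 2 arrays allow no gap test for a single outlying array, and none was run.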

How the results depend on the processing

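Counts of passing probes moved with many settings. For the F-test the count of 118 was 184 with median scaling, 6 without background subtraction, 0 over probes above background on all 6 arrays, 19 over all 15 arrays of 18 months, 190 with an intensity trend and robust prior, 355 with scan period as a fixed block and 75 with scan day as a random block (added after the data had been seen, fitted correlation 0.82). For genotype 18 minus 20 it was 100 with median scaling, 8 without background subtraction, 0 over probes above background on all 6 arrays, 8 over 15 arrays, 89 with trend and robust prior, 983 within scan period 2 and 10 with scan day as a random block. For genotype 18 minus 35 it was 39 without background subtraction, 0 over probes above background on all 6 arrays, 4 over 15 arrays, 68 without genotype 76 and 9 with scan day as a random block. For genotype 20 minus 35 it was 79 with median scaling, 2 without background subtraction, 0 over probes above background on all 6 arrays, 12 over 15 arrays, 78 with trend and robust prior, 398 with scan period as a fixed block, 0 within scan period 1 and 94 with scan day as a random block. The counts of 0 over probes above background on all 6 arrays stand beside 1270, 1033, 1369 and 780 probes at an unadjusted p below 0.05 (limma), in the order of the 4 comparisons, with fewer probes tested. With 1 array left out the counts ran from 0 to 1034, 0 to 685, 0 to 485 and 1 to 398. Of the 118 probes, 78 also passed without genotype 76 and 118 with quantile normalisation over the 7 fast arrays. Setting aside left-out arrays, single scan periods and the authors' table, 12 alternatives remained. The alternative over probes above background on all 6 arrays called 0 probes, so 0 of the 118 could pass under all 12. Under all but 1 of the 12, 4 of the 118 passed.

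The share of the same direction at 5 months was 100 percent without background subtraction, over the 4-of-19 filter and over 15 arrays (2, 38 and 12 probes), 76.1 percent with scan period as a fixed block and 76.1 to 100 percent with 1 array left out. The share of F-test probes on which genotype 15 was nearest to genotype 35 was 83.3 percent without background subtraction and 10 to 50 percent with 1 array left out. At 3 background standard deviations 1 probe in place of 4 was above background in genotype 18 alone.

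In the authors' table, under its own column names, 0 probes passed in any of the 4 comparisons (1820, 2506, 621 and 1765 at an unadjusted p below 0.05, limma), and 19 differences of named probes had the other sign. For genotype 18 minus 20 these were -1.40 for Spruce_09662, 1.96 for Spruce_11497 (under both rules) and 2.27 for Spruce_17254. For genotype 18 minus 35 they were -3.11 for Spruce_03506, -3.70 for Spruce_23840, -2.39 for Spruce_00531, -1.97 for Spruce_27323, 3.96 for Spruce_26690 and, under both rules, 0.81 for Spruce_24444 and 1.08 for Spruce_09775. For genotype 20 minus 35 they were -1.73 for Spruce_23840 (under both rules), -2.26 for Spruce_17254, -0.82 for Spruce_11497, -4.88 for Spruce_03715 and 3.97 for Spruce_16443. The columns of that table match other arrays, as set out above. Under no other setting did a named difference change sign. No paired analysis was possible because the replicate numbers are in accession order and the labels pair no samples across genotypes.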
